A study of Homo sapiens with 8 samples.

Results

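The 29 genes described here make cholesterol and fatty acids or control that synthesis. They were taken by gene symbol from a table of 58825 genes, and all 29 were found. They comprised 18 sterol enzymes, 4 regulators and 7 fatty acid enzymes. RNA had been sequenced from clones of BJ cells, a line of human skin fibroblasts, in a derivative labelled BJ-HRAS. SNORA13 knockout (KO) clones 66 and 69 and wild-type (WT) clones 15 and 54 were each sampled with 4-hydroxytamoxifen (4-OHT, the Z isomer, at 100 nM for 7 days) and without it. The 8 libraries thus formed 4 groups of 2 clones, namely KO with 4-OHT, KO without 4-OHT, WT with 4-OHT and WT without 4-OHT. SNORA13 is a small nucleolar RNA, and the series title places it in ribosome biogenesis and senescence. 4-OHT is an oestrogen receptor ligand that is widely used to switch on proteins fused to that receptor. The labels do not say on which protein it acted here, and all 8 libraries came from the BJ-HRAS derivative, so an effect of the compound itself and of the HRAS construct cannot be told apart.

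Cholesterol is built from acetyl-CoA through mevalonate, farnesyl diphosphate, squalene and lanosterol, and fatty acids are built from the same acetyl-CoA through malonyl-CoA. Both routes are driven by the sterol regulatory element binding proteins (SREBPs), which SCAP escorts out of the endoplasmic reticulum when membrane sterol is low and INSIG proteins hold back when it is high. The released factors act at the promoters of their target genes, commonly beside the CCAAT-binding factor NF-Y, and SREBF2 is known mainly for sterol genes and SREBF1 mainly for fatty acid genes.

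To show the sequences through which such genes are read, promoters of 5 members were taken from RefSeq (build GRCh38.p14) as the 250 bases before the annotated start. SREBF2 is shown because it held the sterol regulatory element ATCACCCCAC, the known SREBP site of that promoter. NSDHL is shown because it held 5 CCAAT boxes, the most of any member with a matched promoter and as many as MVK. NSDHL also had the largest estimate for 4-OHT in WT clones, and a link of box count to response was not tested. MVD, EBP and INSIG1 are shown because their levels differed between KO and WT clones. The SREBF2 stretch is chr22:41832855-41833104 on the plus strand, that of MVD is chr16:88663092-88663341 on the minus strand, and that of NSDHL is chrX:152830813-152831062 on the plus strand. EBP lies at chrX:48521558-48521807 on the plus strand and INSIG1 at chr7:155297628-155297877 on the plus strand. All end at the start that RefSeq gives for 1 transcript of the gene, and are written 5′ to 3′ on the gene's strand. Each window also holds bases that the GENCODE 29 gene model includes, and that of EBP lies wholly within it. Capitals mark CCAAT or its reverse complement ATTGG, the sterol element, and the E-box CACGTG.
SREBF2: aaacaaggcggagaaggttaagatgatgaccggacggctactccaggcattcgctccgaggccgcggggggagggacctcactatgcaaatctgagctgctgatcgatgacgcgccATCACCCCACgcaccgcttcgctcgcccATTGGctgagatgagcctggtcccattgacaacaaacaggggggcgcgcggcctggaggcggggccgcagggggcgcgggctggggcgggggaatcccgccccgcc
MVD: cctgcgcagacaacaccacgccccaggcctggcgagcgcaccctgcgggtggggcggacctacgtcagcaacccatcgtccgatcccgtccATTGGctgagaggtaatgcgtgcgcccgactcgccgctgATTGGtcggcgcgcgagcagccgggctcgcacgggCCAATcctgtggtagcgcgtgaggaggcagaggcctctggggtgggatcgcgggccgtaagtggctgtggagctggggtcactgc
NSDHL: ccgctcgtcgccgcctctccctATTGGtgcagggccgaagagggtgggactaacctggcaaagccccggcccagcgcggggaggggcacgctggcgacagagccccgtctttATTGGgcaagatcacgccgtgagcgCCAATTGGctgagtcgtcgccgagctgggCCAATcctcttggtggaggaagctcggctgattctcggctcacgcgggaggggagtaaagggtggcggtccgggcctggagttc
EBP: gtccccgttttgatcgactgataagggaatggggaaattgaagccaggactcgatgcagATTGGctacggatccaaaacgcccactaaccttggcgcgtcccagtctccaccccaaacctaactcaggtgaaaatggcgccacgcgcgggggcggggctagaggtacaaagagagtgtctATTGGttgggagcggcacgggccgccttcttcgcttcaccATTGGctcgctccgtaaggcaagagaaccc
INSIG1: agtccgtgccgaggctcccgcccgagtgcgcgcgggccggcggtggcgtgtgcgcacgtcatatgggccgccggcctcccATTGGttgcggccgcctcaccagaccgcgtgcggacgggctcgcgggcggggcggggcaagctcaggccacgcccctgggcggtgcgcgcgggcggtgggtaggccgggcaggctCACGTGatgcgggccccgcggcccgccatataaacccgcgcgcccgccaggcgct

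Of the 29 genes, 25 matched at least 1 RefSeq promoter, and ACAT2, FDFT1, SQLE and FASN were not matched. A CCAAT box on either strand was found in 15 of 20 sterol enzyme promoters (75%), 2 of 4 regulator promoters (50.0%) and 5 of 10 fatty acid enzyme promoters (50.0%), beside 32.0% of all 35116 promoters of the same length. NSDHL held 5 such boxes, of which 1 pair overlapped as CCAATTGG, while MVD and EBP held 3 each. The element ATCACCCCAC was found in SREBF2 alone among the members, 1 of 34 promoters (2.94%), beside 0.0342% of all promoters. The E-box was found in 4 of 34 (11.8%), among them INSIG1, beside 6.34% of all. These matches describe letters in a window, and binding was not measured.

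Depth was 22.1 to 24.9 M reads per library, and each member had between 44 and 16872 reads in every library, so all 29 passed the filter on low counts. SNORA13 had 0 reads in all 4 KO libraries, where up to 3 reads can be missed by counting error alone, against 5 and 7 reads in WT clones with 4-OHT and 6 and 4 reads in WT clones without it. The 10 fibroblast markers were all detected. Their summed level was 1774 to 2062 RPKM in KO and 1878 to 1910 RPKM in WT with 4-OHT. Without 4-OHT the sum was 3786 to 3954 RPKM in KO and 3988 to 4255 RPKM in WT. VIM had the highest mean of the 10, at 997 RPKM, and changes of single fibroblast markers are not given. Of 6 epithelial markers, KRT5 and KRT14 were at 0, and the sum was 5.7 to 6.23 RPKM in KO and 6.24 to 7.41 RPKM in WT with 4-OHT, against at most 1.01 RPKM in any library without it. KRT15 led that sum. Of 5 immune markers 3 passed the filter and CD68 was at 0. CD14 led the immune sum, with a mean of 9.99 RPKM. That sum was 8.82 to 10.4 RPKM in KO and 12.1 to 15.3 RPKM in WT with 4-OHT. Without 4-OHT it was 9.09 to 9.84 RPKM in KO and 14.1 to 16.5 RPKM in WT. Of 5 endothelial markers 2 passed the filter, and of 4 melanocyte markers 1 did, with sums of at most 0.408 and 1.1 RPKM. No adipocyte marker passed the filter. The signal recognition particle RNAs RN7SL1 and RN7SL2 took 16.1% and 14.77% of reads in KO and 9.72% and 15.37% in WT with 4-OHT, against 9.27% and 10.13% in KO and 9.18% and 9.58% in WT without it. The part of these shifts in the results on 4-OHT was not tested. In bulk RNA, fewer cells of a type and less RNA per cell cannot be told apart.

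The first question was how the sterol enzymes responded to 4-OHT. In KO clones 15 of 18 were higher with 4-OHT than without, and the median change was 2.05-fold (log2 1.03). In WT clones 15 of 18 were higher, and the median change was 1.61-fold (log2 0.68). Neither limma on RPKM nor limma-voom on the recovered reads called a sterol enzyme lower in either genotype. At an unadjusted p under 0.05 in limma there was 1 lower in KO and 0 in WT, a threshold at which all genes were not counted. All changes are log2 differences of RPKM + 0.1 with their standard error (SE), tested with limma over 16484 genes and called at a Benjamini-Hochberg adjusted p under 0.05. By this rule 28.8% of all genes tested were higher and 27% lower with 4-OHT in KO clones, and 25.3% were higher and 23.7% lower in WT clones, with a median log2 change of 0.0 in KO. Of the sterol enzymes, 14 were higher in both genotypes. IDI1 varied least among them between clones, with a log2 change of 0.93 and 0.94 in KO clones, against 0.95 and 1.01 in WT clones.

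**Figure D1:**
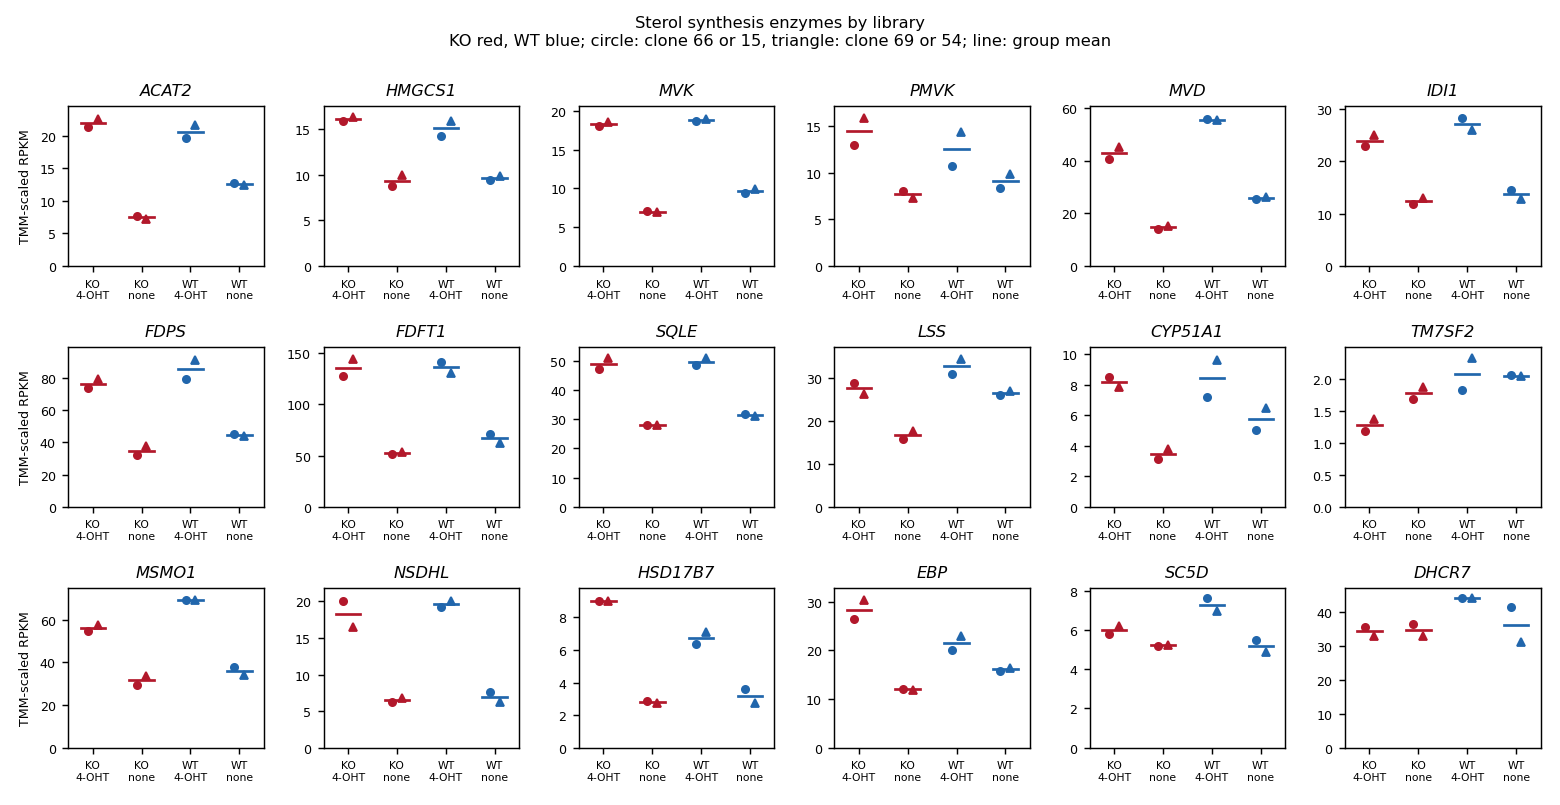
Level of the 18 sterol enzymes in each of the 8 libraries (TMM-scaled RPKM, linear axes from 0), with KO in red and WT in blue, a circle for clone 66 or 15, a triangle for clone 69 or 54 and a line at the group mean. For 15 genes the points of KO clones with 4-OHT lie well above those of KO clones without it, while DHCR7 and SC5D lie close together and TM7SF2 is lower.

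The mevalonate part of the pathway runs through ACAT2, HMGCS1, MVK, PMVK, MVD, IDI1 and FDPS. Levels below are RPKM divided by trimmed-mean (TMM) factors, given for clones 66 and 69 of KO and for clones 15 and 54 of WT. ACAT2, a cytosolic acetoacetyl-CoA thiolase, stood at 21.4 and 22.6 RPKM in KO with 4-OHT, against 7.66 and 7.25 RPKM in KO without it. In WT it stood at 19.7 and 21.6 RPKM with 4-OHT, against 12.7 and 12.4 RPKM without. The treated libraries of both genotypes thus lay close together, and the untreated KO libraries were the lowest. The change was 1.55 ± 0.08 in KO (log2 ± SE, limma adjusted p = 1.05e-05) and 0.71 ± 0.08 in WT (adjusted p = 0.000358). MVK, the mevalonate kinase, behaved alike, with 18.0 and 18.5 RPKM in KO with 4-OHT, against 7.02 and 7.0 RPKM in KO without it. In WT it had 18.7 and 19.0 RPKM with 4-OHT, against 9.36 and 9.88 RPKM without. MVD, the mevalonate diphosphate decarboxylase, had 40.8 and 45.2 RPKM in KO with 4-OHT, against 14.2 and 15.1 RPKM in KO without it. It had 55.8 and 55.5 RPKM in WT with 4-OHT, against 25.3 and 26.4 RPKM in WT without it. Within either genotype its treated and untreated libraries did not overlap, and the change was 1.54 ± 0.08 in KO (adjusted p = 9.33e-06) and 1.1 ± 0.08 in WT (adjusted p = 4.36e-05).

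HMGCS1, the HMG-CoA synthase that feeds mevalonate formation, had 15.9 and 16.3 RPKM in KO with 4-OHT, against 8.78 and 9.93 RPKM in KO without it. It had 14.3 and 15.9 RPKM in WT with 4-OHT, against 9.47 and 9.85 RPKM in WT without it. Its change was 0.78 ± 0.09 in KO (limma adjusted p = 0.000318) and 0.64 ± 0.09 in WT (adjusted p = 0.00115). IDI1, the isomerase that makes dimethylallyl diphosphate, rose by nearly the same amount in both genotypes, 0.93 ± 0.1 in KO and 0.98 ± 0.1 in WT. FDPS, the farnesyl diphosphate synthase, had 73.8 and 79.1 RPKM in KO with 4-OHT, against 32.3 and 37.5 RPKM in KO without it. It had 79.1 and 91.4 RPKM in WT with 4-OHT, against 45.4 and 43.9 RPKM in WT without it. PMVK, the phosphomevalonate kinase, was called in KO (0.89 ± 0.17, adjusted p = 0.00317) and not in WT (0.45 ± 0.17, adjusted p = 0.0626). Its treated WT libraries, 10.7 and 14.4 RPKM, were far apart beside 8.34 and 9.92 RPKM without 4-OHT, and it passed in WT with the clone as a block (adjusted p = 0.0301) or without the treated WT clone 15 (0.66, adjusted p = 0.0234). The difference between the 2 responses of PMVK was 0.44 ± 0.24 (adjusted p = 0.296).

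FDFT1, the squalene synthase that commits farnesyl units to sterols, had 128 and 144 RPKM in KO with 4-OHT, against 51.2 and 53.1 RPKM in KO without it. It had 142 and 131 RPKM in WT with 4-OHT, against 71.1 and 62.6 RPKM in WT without it. The groups were well apart in both genotypes, with changes of 1.38 ± 0.09 in KO (limma adjusted p = 2.58e-05) and 1.03 ± 0.09 in WT (adjusted p = 0.000133). SQLE, the squalene epoxidase, had 47.3 and 50.8 RPKM in KO with 4-OHT, against 27.9 and 28.0 RPKM in KO without it. It had 48.5 and 50.9 RPKM in WT with 4-OHT, against 31.8 and 31.1 RPKM in WT without it. LSS, which closes the ring to lanosterol, had 29 and 26.4 RPKM in KO with 4-OHT, against 15.9 and 17.7 RPKM in KO without it. Its change was 0.72 ± 0.09 in KO (adjusted p = 0.000447). In WT LSS had 31.1 and 34.6 RPKM with 4-OHT, against 26.1 and 27.1 RPKM without, a change of 0.3 ± 0.09 (adjusted p = 0.0292). That WT call of LSS ended in 6 of 15 alternative settings, among them leaving out the treated WT clone 54 (0.23, adjusted p = 0.153) or the untreated WT clone 15 (0.28, adjusted p = 0.0932) or 54 (0.33, adjusted p = 0.0532).

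The enzymes that turn lanosterol into cholesterol were less uniform. HSD17B7, a sterol ketoreductase, changed by 1.65 ± 0.14 in KO, the largest estimate of the 29 genes there (limma adjusted p = 6.02e-05), with 9.03 and 9.03 RPKM in KO with 4-OHT, against 2.87 and 2.74 RPKM in KO without it. In WT it had 6.4 and 7.08 RPKM with 4-OHT, against 3.62 and 2.77 RPKM without, a change of 1.06 ± 0.14 (adjusted p = 0.000645). NSDHL, a sterol dehydrogenase and the promoter above with 5 CCAAT matches, had 20.1 and 16.5 RPKM in KO with 4-OHT, against 6.19 and 6.75 RPKM in KO without it. It had 19.3 and 20.1 RPKM in WT with 4-OHT, against 7.56 and 6.28 RPKM in WT without it. The change of NSDHL was 1.48 ± 0.13 in KO (adjusted p = 7.07e-05) and 1.5 ± 0.13 in WT (adjusted p = 0.0001). MSMO1, the sterol C4-methyl oxidase, had 54.7 and 57.6 RPKM in KO with 4-OHT, against 29.6 and 33.8 RPKM in KO without it. It had 69.2 and 69.4 RPKM in WT with 4-OHT, against 37.9 and 34.1 RPKM in WT without it. MSMO1 was thus higher in both genotypes, by 0.82 ± 0.09 in KO and 0.94 ± 0.09 in WT.

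CYP51A1, the lanosterol demethylase, had 8.49 and 7.88 RPKM in KO with 4-OHT, against 3.12 and 3.79 RPKM in KO without it, a change of 1.23 ± 0.18 (limma adjusted p = 0.000904). In WT it had 7.22 and 9.64 RPKM with 4-OHT, against 5.05 and 6.45 RPKM without, a change of 0.54 ± 0.18 (adjusted p = 0.0406). The WT libraries of CYP51A1 are spread widely. The WT call ended in 9 of 15 alternative settings, with an adjusted p of 0.215 without the treated WT clone 54, 0.179 without the untreated WT clone 15 and 0.0511 to 0.0624 without any 1 of the 4 KO libraries. CYP51A1 also shares 2844 of its 3584 exon bases with a same-strand gene, AC000120.2, which was listed at 0 reads in all libraries. EBP, the sterol isomerase that is also known to bind tamoxifen, had 26.4 and 30.3 RPKM in KO with 4-OHT, against 12 and 11.9 RPKM in KO without it. It had 19.96 and 22.9 RPKM in WT with 4-OHT, against 15.7 and 16.4 RPKM in WT without it. The change of EBP was 1.24 ± 0.1 in KO (adjusted p = 4.97e-05) and 0.41 ± 0.1 in WT (adjusted p = 0.0107), the WT call ending without the treated WT clone 54 (0.31, adjusted p = 0.0663).

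Of the other enzymes after lanosterol, SC5D and TM7SF2 were not called higher in KO and DHCR7 in neither genotype. SC5D, a sterol desaturase, had 5.82 and 6.21 RPKM in KO with 4-OHT, against 5.19 and 5.25 RPKM in KO without it, a change of 0.2 ± 0.1 that was not called (limma adjusted p = 0.129). In WT SC5D had 7.62 and 6.97 RPKM with 4-OHT, against 5.48 and 4.9 RPKM without, and was called (0.48 ± 0.1, adjusted p = 0.00601). The difference of the SC5D responses was -0.28 ± 0.14 (adjusted p = 0.269). DHCR7, which reduces 7-dehydrocholesterol to cholesterol, had 35.6 and 32.8 RPKM in KO with 4-OHT, against 36.3 and 32.9 RPKM in KO without it, so that the groups overlapped. In WT DHCR7 had 44.1 and 43.9 RPKM with 4-OHT, against 41.3 and 31.0 RPKM without (0.3 ± 0.13, adjusted p = 0.102), and it passed without the untreated WT clone 15 (0.51, adjusted p = 0.00589). TM7SF2, a sterol reductase, was the sterol enzyme with the fewest reads and had 1.19 and 1.37 RPKM in KO with 4-OHT, against 1.68 and 1.87 RPKM in KO without it. Its estimate was -0.44 ± 0.17 (adjusted p = 0.0584) in KO and 0.01 ± 0.17 in WT, and in KO it was called lower when only library size was used for scaling (-0.5, adjusted p = 0.0364).

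**Figure D2:**
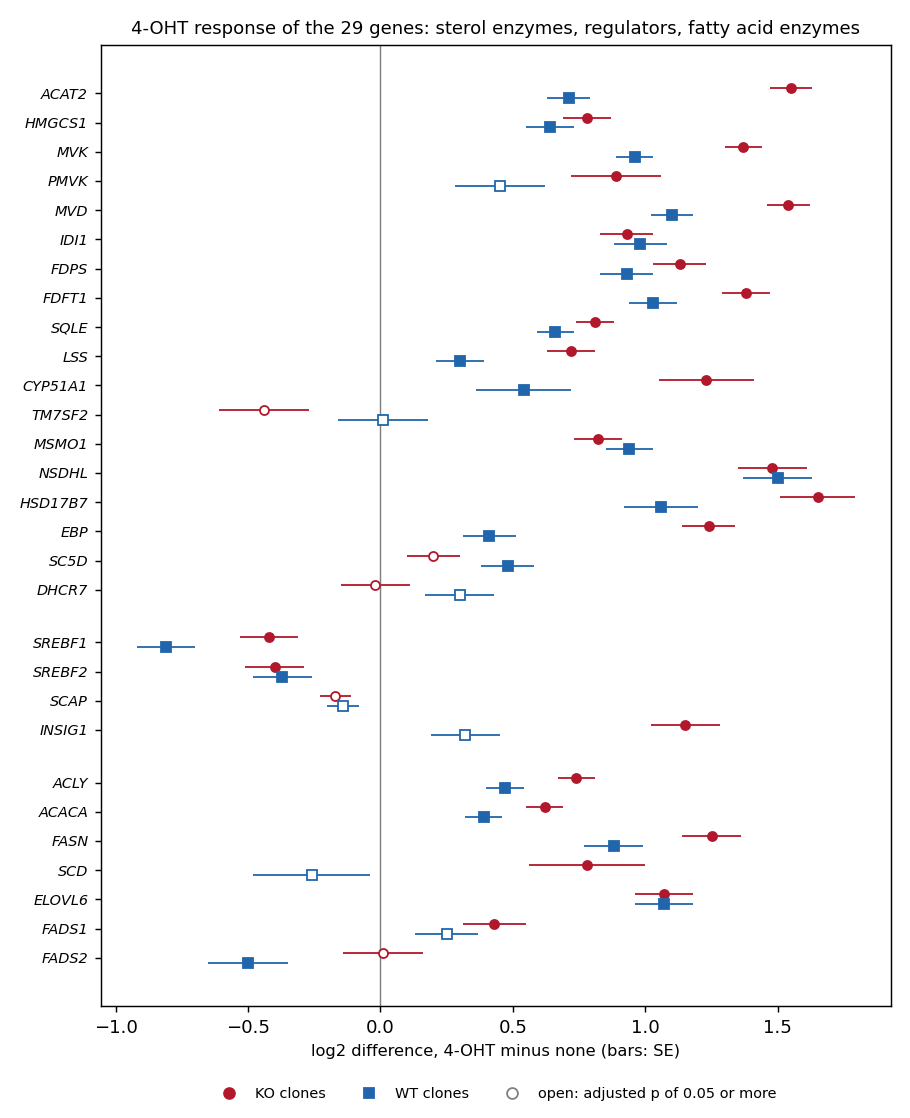
Log2 change with 4-OHT of each of the 29 genes in KO clones and in WT clones (points, bars are SE of the limma fit), grouped into sterol enzymes, regulators and fatty acid enzymes. Sterol enzymes run from -0.44 to 1.65 in KO and from 0.01 to 1.5 in WT, and both SREBF genes lie below 0 in both genotypes.

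Among the regulators, SREBF1 and SREBF2, which encode the SREBP factors, were both lower with 4-OHT in both genotypes. They were the only 2 of the 29 genes that were. Of all genes tested, 27% were lower in KO and 23.7% in WT, so the members lower were not above that share. The share of all genes lower in both genotypes was not counted. SREBF1 had 19.2 and 22.2 RPKM in KO with 4-OHT, against 29.2 and 26.2 RPKM in KO without it. It had 17.6 and 16.5 RPKM in WT with 4-OHT, against 31.9 and 28.0 RPKM in WT without it. The groups did not overlap in either genotype, and the change of SREBF1 was -0.42 ± 0.11 in KO (limma adjusted p = 0.0126) and -0.81 ± 0.11 in WT (adjusted p = 0.00077). SREBF2 had 19.8 and 21.2 RPKM in KO with 4-OHT, against 28.2 and 25.9 RPKM in KO without it. It had 22.0 and 23.4 RPKM in WT with 4-OHT, against 32.5 and 26.8 RPKM in WT without it. Its change was -0.4 ± 0.11 in KO (adjusted p = 0.0145) and -0.37 ± 0.11 in WT (adjusted p = 0.0217). Leaving out KO clone 66, treated or untreated, ended both KO calls, with an adjusted p of 0.082 and 0.0861 for SREBF1 and of 0.0801 and 0.0911 for SREBF2. The WT call of SREBF2 ended in 5 of 15 alternative settings, among them leaving out the treated WT clone 15 (adjusted p = 0.102) or 54 (0.0521) or the untreated WT clone 15 (0.0894).

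SCAP, the escort of the SREBPs, differed little, with 32.7 and 31.1 RPKM in KO with 4-OHT, against 35.9 and 35.8 RPKM in KO without it. It had 29.9 and 30.02 RPKM in WT with 4-OHT, against 33.0 and 33.0 RPKM in WT without it. Its change was -0.17 ± 0.06 in KO (limma adjusted p = 0.0543) and -0.14 ± 0.06 in WT (adjusted p = 0.111), and SCAP was called lower in both when only library size was used for scaling (-0.23, adjusted p = 0.0282 in KO, and -0.22, adjusted p = 0.0386 in WT). INSIG1, which retains the SREBP escort and is itself an SREBP target, had 49.8 and 59.6 RPKM in KO with 4-OHT, against 23.3 and 25.8 RPKM in KO without it. In WT it had 34.4 and 33.6 RPKM with 4-OHT, against 30.3 and 24.5 RPKM without. The treated KO libraries stood above all others. The change of INSIG1 was 1.15 ± 0.13 in KO (adjusted p = 0.000227) and 0.32 ± 0.13 in WT (adjusted p = 0.0728). In WT it passed with the clone as a block (0.32, adjusted p = 0.0301) and without the untreated WT clone 15 (0.47, adjusted p = 0.0216).

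Of the 7 fatty acid enzymes, 6 were higher with 4-OHT in KO clones and the median change was 1.67-fold (log2 0.74). In WT clones 4 were higher, FADS2 was lower, and the median change was 1.31-fold (log2 0.39). Over all genes tested 28.8% were higher and 27% lower in KO, and 25.3% higher and 23.7% lower in WT. The count lower in WT was thus not above the share over all genes. ACLY, ACACA, FASN and ELOVL6 were higher in both genotypes. ACLY, which cleaves citrate to cytosolic acetyl-CoA for both routes, had 133 and 134 RPKM in KO with 4-OHT, against 83.3 and 76.7 RPKM in KO without it. It had 141 and 135 RPKM in WT with 4-OHT, against 98.4 and 100.4 RPKM in WT without it. ACACA, the carboxylase that makes malonyl-CoA, had a change of 0.62 ± 0.07 in KO (limma adjusted p = 0.00033) and 0.39 ± 0.07 in WT (adjusted p = 0.00378). FASN, the fatty acid synthase, had 64.9 and 58.0 RPKM in KO with 4-OHT, against 28.1 and 23.4 RPKM in KO without it. It had 59.7 and 52.5 RPKM in WT with 4-OHT, against 30.1 and 30.8 RPKM in WT without it. The change of FASN was 1.25 ± 0.11 in KO (adjusted p = 8.49e-05) and 0.88 ± 0.11 in WT (adjusted p = 0.000634), the largest of the 7 in KO.

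ELOVL6, which elongates palmitate, had 9.53 and 9.62 RPKM in KO with 4-OHT, against 4.43 and 4.57 RPKM in KO without it. It had 6.75 and 7.16 RPKM in WT with 4-OHT, against 3.54 and 2.98 RPKM in WT without it. The response was 1.07 ± 0.11 in either genotype, on a higher level in KO. The desaturases behaved otherwise. SCD, which makes oleate from stearate, had 98.5 and 136 RPKM in KO with 4-OHT, against 69.9 and 65.1 RPKM in KO without it. It had 76.3 and 67.9 RPKM in WT with 4-OHT, against 106 and 69.7 RPKM in WT without it, where the untreated clone 15 was the highest of the 4. SCD was called in KO (0.78 ± 0.22, limma adjusted p = 0.0172) and not in WT (-0.26 ± 0.22, adjusted p = 0.358). The KO call of SCD ended without the treated KO clone 69 (0.55, adjusted p = 0.107), without the untreated KO clone 66 (adjusted p = 0.0576) or 69 (adjusted p = 0.0841), and with no filter on low genes (adjusted p = 0.0562). Without the untreated WT clone 54 it was called lower in WT (-0.56, adjusted p = 0.0435).

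FADS1 and FADS2 are the desaturases of polyunsaturated fatty acids and lie on opposite strands of chromosome 11. In the gene models used, FADS1 lies within the span of FADS2, and they share 490 exon bases. FADS1 had 72.6 and 79.3 RPKM in KO with 4-OHT, against 58.3 and 54.2 RPKM in KO without it (0.43 ± 0.12, limma adjusted p = 0.0165). That call of FADS1 ended without KO clone 69, treated (adjusted p = 0.0934) or untreated (adjusted p = 0.0944). In WT FADS1 had 73.2 and 65.0 RPKM with 4-OHT, against 64.6 and 52.1 RPKM without (0.25 ± 0.12, adjusted p = 0.12), and it passed without the untreated WT clone 15 (0.4, adjusted p = 0.0215). FADS2 overlapped between treated and untreated KO libraries, with 103 and 130.2 RPKM with 4-OHT, against 122 and 109 RPKM without. In WT it had 90.5 and 86.5 RPKM with 4-OHT, against 143 and 109.9 RPKM without, and was called lower (-0.5 ± 0.15, adjusted p = 0.0284). The WT call of FADS2 ended with no filter (adjusted p = 0.0803), and without the treated WT clone 15 (adjusted p = 0.077) or 54 (0.109) or the untreated WT clone 15 (-0.31, adjusted p = 0.123).

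**Figure D3:**
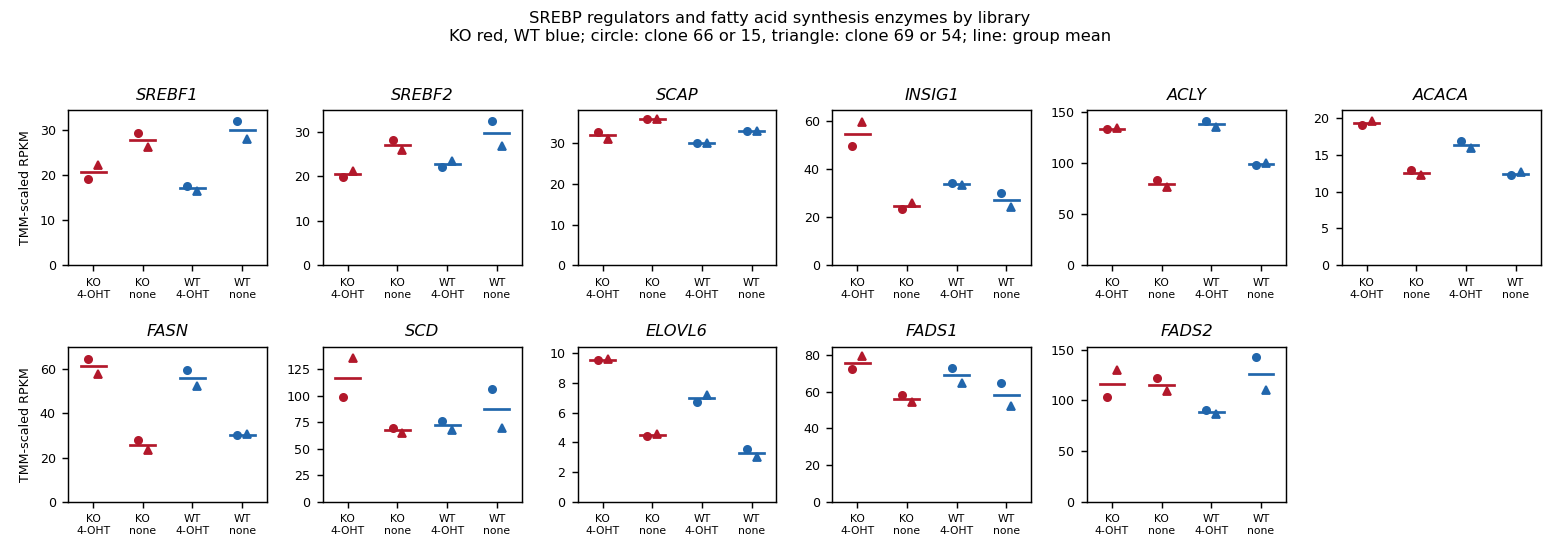
Level of the 4 regulators and the 7 fatty acid enzymes in each of the 8 libraries (TMM-scaled RPKM, linear axes from 0), with KO in red and WT in blue, a circle for clone 66 or 15, a triangle for clone 69 or 54 and a line at the group mean. FASN and ELOVL6 are higher with 4-OHT in both genotypes, SREBF1 is lower in both, INSIG1 is highest in both KO clones with 4-OHT, and the SCD mean is highest in that group, although untreated WT clone 15 (106 RPKM) lies above treated KO clone 66 (98.5 RPKM).

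The genotypes were then compared within each treatment. Without 4-OHT, 6 of the 29 genes were lower in KO than in WT clones and 0 were higher, beside 3.77% lower and 2.63% higher among all genes tested. At an unadjusted p under 0.05 the limma fit had 1 of the 29 genes higher and 10 lower. The share over all genes at that unadjusted threshold was not counted. Limma-voom on the recovered reads called 1 of the 29 higher, ELOVL6 (0.47, adjusted p = 0.0187), and 7 lower. Over all 16484 genes limma-voom called 863 higher and 898 lower. Of the 18 sterol enzymes, 17 had a negative estimate, and their median was -0.22, against -0.01 over all genes. The 6 genes were MVD (-0.81 ± 0.08, limma adjusted p = 0.00675), ACAT2 (-0.75 ± 0.08, adjusted p = 0.00769), LSS (-0.66 ± 0.09, adjusted p = 0.0124), MVK (-0.45 ± 0.07, adjusted p = 0.0183), EBP (-0.42 ± 0.1, adjusted p = 0.0499) and ACLY (-0.31 ± 0.07, adjusted p = 0.0443). In each of them both untreated KO libraries lay below both untreated WT libraries, an order that 29.4% of all genes tested showed. CYP51A1 had an estimate as large (-0.71 ± 0.18, adjusted p = 0.0608) but wider spread. All 6 calls ended without the untreated KO clone 66 or without the untreated KO clone 69, while the estimates of the 6 stayed between -0.85 and -0.25. The adjusted p was then 0.0673 or 0.0577 for MVD, 0.0686 or 0.0746 for ACAT2, 0.0938 or 0.0759 for LSS, 0.117 or 0.136 for MVK, 0.191 or 0.233 for EBP and 0.13 or 0.261 for ACLY. EBP and ACLY lost their calls in 12 and 10 of 14 settings in all, among them leaving out any treated library (adjusted p = 0.054 to 0.066 for EBP and 0.0649 to 0.0844 for ACLY) or the untreated WT clone 54 (0.147 for EBP, 0.115 for ACLY and 0.0623 for MVK), and EBP also without the untreated WT clone 15 (0.0619). Without that clone CYP51A1 (-0.89, adjusted p = 0.0362) and ELOVL6 (0.58, adjusted p = 0.0218) passed.

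With 4-OHT, 3 of the 29 genes were higher in KO than in WT clones and 2 were lower. Among all genes tested 6.73% were higher and 7.72% lower, so both counts were near the background. INSIG1 was higher (0.68 ± 0.13, limma adjusted p = 0.0166), as were ELOVL6 (0.46 ± 0.11, adjusted p = 0.034) and EBP (0.4 ± 0.1, adjusted p = 0.0358). MVD (-0.37 ± 0.08, adjusted p = 0.0226) and TM7SF2 (-0.65 ± 0.17, adjusted p = 0.045) were lower. MVD was thus lower in KO at either treatment, while EBP was lower without 4-OHT and higher with it. TM7SF2 had 1.19 and 1.37 RPKM in KO, against 1.83 and 2.32 RPKM in WT, and its call ended in 11 of 14 settings. The calls of ELOVL6, INSIG1, MVD and EBP ended in 7, 4, 5 and 7 of 14 settings. Leaving out any 1 treated library ended at least 4 of the 5 calls, with an adjusted p of up to 0.162 for ELOVL6, 0.108 for INSIG1, 0.109 for MVD, 0.195 for EBP and 0.177 for TM7SF2. Leaving out either untreated KO library ended the calls of ELOVL6, TM7SF2 and EBP (adjusted p = 0.0683 to 0.0813), and leaving out either untreated WT library that of TM7SF2 (0.0503 and 0.0505), while HSD17B7, MSMO1, SCD and DHCR7 then passed (0.0235 to 0.0446). With no filter on low genes all 5 ended, with an adjusted p of 0.0566 to 0.109. Since each genotype was 2 clones, a difference between genotypes and any other difference between these clones cannot be told apart.

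**Figure D4:**
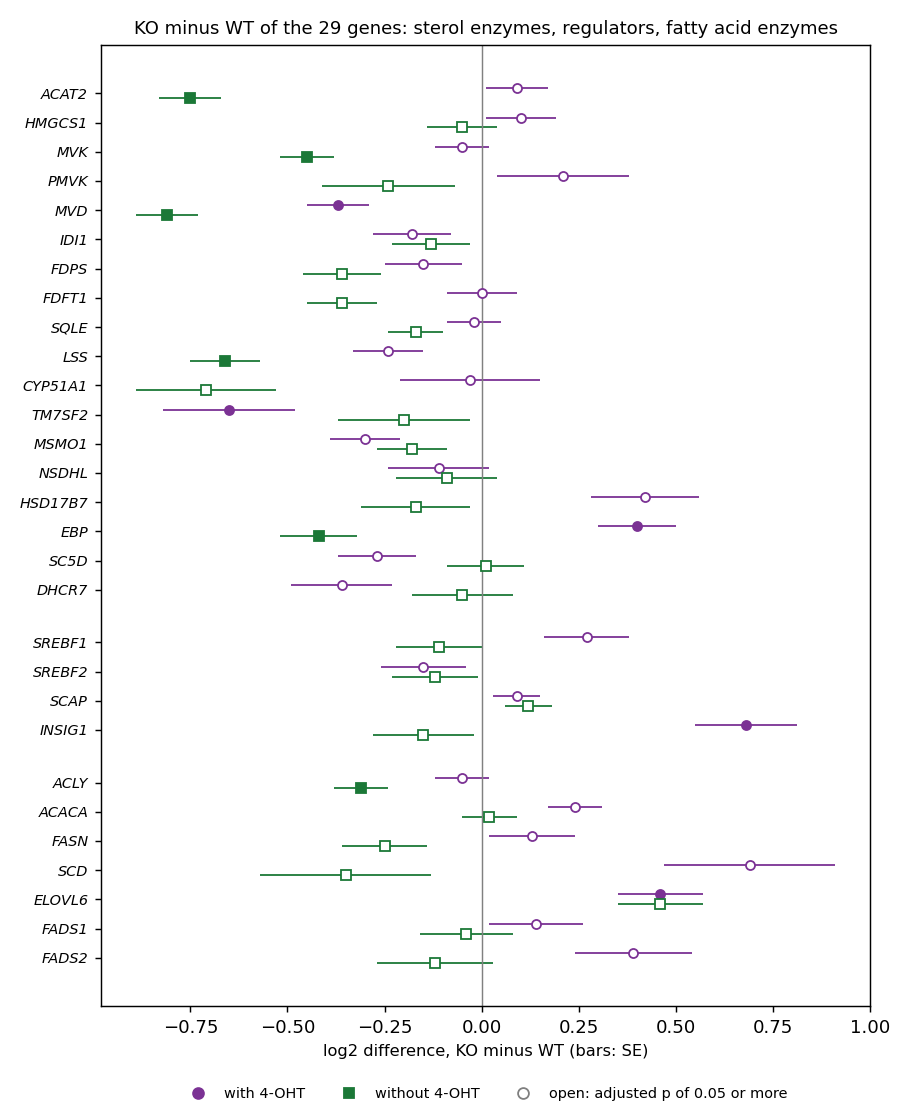
Log2 difference KO minus WT of each of the 29 genes with 4-OHT and without 4-OHT (points, bars are SE of the limma fit; open points have an adjusted p of 0.05 or more). Without 4-OHT most sterol enzymes lie below 0, down to -0.81 for MVD. With 4-OHT 13 of the 18 sterol enzymes have a negative estimate and 5 a positive one, among them EBP at 0.4. The regulator INSIG1 lies at 0.68 with 4-OHT.

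Whether the response to 4-OHT differed between the genotypes was tested directly as the KO response minus the WT response. It was larger in KO for 3 of the 29 genes and smaller for 0, beside 4.38% larger and 3.11% smaller among all genes tested. At an unadjusted p under 0.05 the limma fit had 14 larger and 0 smaller. The share over all genes at that unadjusted threshold was not counted. Limma-voom on the recovered reads called 4 of the 29 larger and 0 smaller, beside 940 larger and 828 smaller of all 16484 genes. ACAT2 gave a difference of 0.84 ± 0.11 (limma adjusted p = 0.00858), EBP of 0.83 ± 0.14 (adjusted p = 0.0166) and INSIG1 of 0.83 ± 0.18 (adjusted p = 0.0371). By clone, the log2 change of ACAT2 was 1.47 and 1.63 in KO, against 0.63 and 0.79 in WT. That of EBP was 1.13 and 1.34 in KO, against 0.34 and 0.48 in WT, and that of INSIG1 was 1.09 and 1.21 in KO, against 0.19 and 0.45 in WT. ACAT2 was called between genotypes without 4-OHT and not with it (0.09 ± 0.08, adjusted p = 0.483), INSIG1 with 4-OHT and not without it (-0.15 ± 0.13, adjusted p = 0.496), and EBP at both. SCD had the largest estimate, 1.04 ± 0.31, which was not called (adjusted p = 0.0853). Of the 18 sterol enzymes, 12 had a larger estimate in KO, and the median difference was 0.28, against -0.01 over all genes. MVK, MVD, HSD17B7 and SCD were called larger and DHCR7 smaller in KO when 1 of the untreated WT libraries was left out, with an adjusted p of 0.0286 to 0.0496.

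Over all settings the estimate of the difference lay between 0.77 and 0.91 for ACAT2, 0.73 and 0.92 for EBP, and 0.68 and 0.98 for INSIG1, while the adjusted p crossed the threshold when some single libraries were left out. The call of ACAT2 ended without KO clone 69, treated (0.8, adjusted p = 0.0509) or untreated (0.8, adjusted p = 0.0503). That of EBP ended without the treated KO clone 69 (0.73, adjusted p = 0.0673), the untreated KO clone 66 (0.84, adjusted p = 0.0699) or 69 (0.82, adjusted p = 0.0787), and the treated WT clone 15 (0.73, adjusted p = 0.0598). That of INSIG1 ended without any 1 of the 4 KO libraries or of the 2 treated WT libraries, with estimates of 0.7 to 0.96 and an adjusted p of 0.0507 to 0.132. MKI67, a proliferation marker, moved with the same comparison: it had 14.0 and 13.8 RPKM in KO with 4-OHT, against 2.31 and 2.04 RPKM in KO without it. In WT it had 5.8 and 6.24 RPKM with 4-OHT, against 5.02 and 6.9 RPKM without. Its response was 2.62 ± 0.15 in KO (adjusted p = 1.6e-05) and 0.03 ± 0.15 in WT (adjusted p = 0.883), a difference of 2.59 ± 0.22 (adjusted p = 0.00524). MKI67 was also lower in KO than in WT without 4-OHT (-1.4 ± 0.15, adjusted p = 0.0083), a call of MKI67 that ended without the untreated KO clone 66 (0.0673) or 69 (0.0746). The part of proliferation in the results on the 29 genes was not tested.

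ACAT2 (chr6:159760328-159779055, plus strand, GRCh38) overlaps exons of genes on the other strand, by 1458 bases with SOD2-OT1, 1141 bases with SOD2 and 397 bases with TCP1. The kit keeps strand, but the strand setting of the counting is not given in the sources used here. SOD2-OT1 and SOD2 were each listed at 0 or 1 read in every library. TCP1, a chaperonin subunit, changed by 1.22 in KO and 1.0 in WT, and its difference of responses was 0.22 (limma adjusted p = 0.387). The part of overlapping reads in the values of ACAT2 was not tested. In all, 13 of the 29 genes share exon bases with a gene on the opposite strand, 4 with one on the same strand, and 5 have named pseudogenes (FDPS, CYP51A1, HSD17B7, SCD and FADS2), so that their reads may be split or shared.

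Other genes of lipid metabolism were counted in 4 lists. Of 21 further SREBP targets and regulators that passed the filter, 7 were higher and 4 lower with 4-OHT in KO clones, and 8 were higher and 5 lower in WT clones, with a median log2 change of 0.03 in KO and 0.21 in WT. Over all genes tested 28.8% were higher and 27% lower in KO, and 25.3% higher and 23.7% lower in WT, so the KO counts of this list were near the background. CYB5B, a membrane-bound cytochrome b5, rose by 1.4 ± 0.07 in KO (limma adjusted p = 9.98e-06) and 1.42 ± 0.07 in WT (adjusted p = 1.4e-05). TMEM97, a sterol-binding membrane protein, and MID1IP1, an activator of ACACA, had a larger response in KO than in WT, by 0.64 ± 0.12 (adjusted p = 0.0224) and 0.81 ± 0.16 (adjusted p = 0.0274). ME1, the malic enzyme that supplies NADPH, had a smaller one (-0.65 ± 0.15, adjusted p = 0.0427), with 22.5 and 20.4 RPKM in KO with 4-OHT, against 10.6 and 12.4 RPKM in KO without it. ME1 had 45.6 and 44.5 RPKM in WT with 4-OHT, against 16.2 and 14.5 RPKM in WT without it. With 4-OHT, ME1 was lower in KO than in WT (-1.07 ± 0.1, adjusted p = 0.00376), a call that held in all 14 settings. The calls on the 3 differences of responses ended without any 1 of the 4 KO libraries or of the 2 treated WT libraries, with an adjusted p of 0.0605 to 0.102 for TMEM97, 0.0703 to 0.108 for MID1IP1 and 0.0617 to 0.146 for ME1, which also ended without the untreated WT clone 54 (0.0883) and with the clone as a block (0.0611).

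In the list on sterol efflux and storage, 3 of 10 genes were higher and 5 lower with 4-OHT in KO clones, and 3 were higher and 2 lower in WT clones, beside 28.8% higher and 27% lower in KO and 25.3% higher and 23.7% lower in WT over all genes. The counts higher in KO, and both counts in WT, were near that background. NR1H3, the sterol-sensing receptor LXR alpha, fell by 1.93 in KO (SE 0.13, limma adjusted p = 2.24e-05), with 1.53 and 1.61 RPKM with 4-OHT, against 6.37 and 6.19 RPKM without. It fell by 2.67 in WT (adjusted p = 1.05e-05). SOAT1, which esterifies cholesterol for storage, was higher in both genotypes, by 0.4 ± 0.09 in KO and 0.47 ± 0.09 in WT. ABCA1, the cholesterol exporter, was called higher in WT (1.46 ± 0.29, limma adjusted p = 0.00499). In KO too its levels were higher with 4-OHT, at 5.23 and 6.34 RPKM, against 2.42 and 2.87 RPKM without. Of 16 genes of fatty acid oxidation and lipid droplets, 5 were higher and 5 lower in KO, near the 28.8% and 27% of all genes, and 6 were higher and 3 lower in WT, beside 25.3% and 23.7%. PNPLA2, the triglyceride lipase, fell by 1.3 in KO (SE 0.12, adjusted p = 9.73e-05) and by 0.9 in WT (adjusted p = 0.000744), and PPARGC1A, a coactivator of oxidative genes, fell by 2.25 in KO and by 1.92 in WT. DGAT2, a triglyceride-forming acyltransferase, was higher in KO than in WT at either treatment (1.6 ± 0.24 with 4-OHT, adjusted p = 0.00966, and 2.35 ± 0.24 without, adjusted p = 0.00763). Its levels were low, 1.7 and 2.61 RPKM in KO with 4-OHT, and the calls of DGAT2 ended without the treated KO clone 69 (adjusted p = 0.0721) or WT clone 15 (0.0637), and without the untreated KO clone 66 (0.0686) or 69 (0.0711).

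Of 9 genes of the isoprenoid branches that leave the pathway before squalene, 4 were higher and 2 lower in KO, beside 28.8% and 27% of all genes, and 5 were higher and 2 lower in WT, beside 25.3% and 23.7%, so that the counts lower were near the background. PDSS1, which makes the side chain of coenzyme Q, rose by 1.84 ± 0.12 in KO (limma adjusted p = 2.22e-05) and 1.37 ± 0.12 in WT (adjusted p = 0.000108), while COQ2, which attaches that chain, fell by 0.94 in KO and by 1.11 in WT. GGPS1, the geranylgeranyl diphosphate synthase, fell by 0.86 in KO (limma adjusted p = 0.000569). In WT too its levels were lower with 4-OHT, at 5.27 and 4.89 RPKM, against 7.64 and 6.86 RPKM without. DHDDS, a dolichol synthesis subunit, was lower in KO than in WT with 4-OHT (-0.51 ± 0.08, adjusted p = 0.00993), a call of DHDDS that ended without the treated KO clone 69 (0.0772) or WT clone 15 (0.0677).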

How the data were processed

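Total RNA from 8 libraries was measured, 4 groups of 2 clones. Per the submitters' processing notes, the tools were edgeR, featureCounts and STAR, on GRCh38; which did what, their versions and the strand setting are not stated there. The authors deposited 1 table, whose values are RPKM (reads per kilobase of 1 listed transcript, scaled to the library total). Per the file headers, columns carry a clone number, bare or with a minus sign, and the sign was read as 4-OHT negative, a reading that no label spells out. With GENCODE release 29 lengths, 100.0% of values in genes with a listed length came out as whole reads within 0.1 read, and lengths of the other genes, 11 members among them, were those at which their own values became whole. Because 1 transcript length stands for each gene, levels were compared within genes, except in the marker sums. Those sums add RPKM of different genes, so genes with high RPKM weigh most in them. The 45 pseudoautosomal Y duplicate rows were left out.

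RPKM values were divided by TMM factors (0.94 to 1.035) from the recovered reads. Genes with a CPM of 0.425 or more in 2 libraries and 15 reads in total were kept, 16484 in all. The 4 groups were fitted together by limma (version 3.58.1, R 4.3.3) as means of log2(RPKM + 0.1), leaving 4 residual degrees of freedom, and variances were moderated robustly with a trend on intensity; p-values are two-sided and adjusted by the Benjamini-Hochberg method over all genes tested, with a threshold of 0.05. The scale understates changes of low genes. The fit was also run on simulated reads in which few genes changed, in the treated KO group alone. That run covered only the 4-OHT response in KO, so it does not bear on the calls between genotypes or on the difference of responses. The p-values set each difference against the spread between the 2 clones of a group, pooled over the 4 groups and moderated across genes.

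The members and lists were chosen with earlier results of these data known. All 29 members are reported; of other lists, at most 4 genes with the smallest p per comparison may be named. Likeness between members across libraries was not computed, since the libraries form separate clusters by treatment. Treated and untreated libraries with 1 clone number come from the same clone per the labels, so the numbers pair them. Their deviations from the group means correlated at 0.001 in KO and 0.311 in WT. The alternatives were a pseudocount of 1, no filter, 2 other scalings, a fit on the compared libraries alone, limma-voom on recovered reads, the clone as a block and leaving out each library.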

Additional observations from a re-analysis of the deposited data

Results flagged for a closer look

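The responses of 3 of the 29 genes to 4-OHT differed between genotypes by the test of the difference itself. The KO response minus the WT response was 0.84 ± 0.11 on the log2 scale for ACAT2 (limma adjusted p = 0.00858), 0.83 ± 0.14 for EBP (adjusted p = 0.0166) and 0.83 ± 0.18 for INSIG1 (adjusted p = 0.0371), and both KO clones changed more than both WT clones in each. Among all genes tested 4.38% were called larger in KO. Each call ended when 1 of several libraries was left out, the adjusted p reaching 0.0509 for ACAT2, 0.0787 for EBP and 0.132 for INSIG1.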

How the results depend on the processing

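Of 60 calls of members over the 5 comparisons, 37 held in every setting: 20 of 24 for 4-OHT in KO, 17 of 22 for 4-OHT in WT, and 0 of 14 for the others, namely 6 calls between untreated genotypes, 5 between treated genotypes and 3 on the difference of responses. None changed sign. With no filter on low genes, which raised the genes tested to 36398, members lower with 4-OHT in WT went from 3 to 1, members lower in KO without 4-OHT from 6 to 3, those called between genotypes with 4-OHT to 0 higher and 0 lower, and larger responses in KO to 1. Of those 36398 genes, 3177 were lower with 4-OHT in WT and 161 were lower in KO without 4-OHT. Between genotypes with 4-OHT 449 were higher and 545 lower, and 305 responses were larger in KO. Scaling by library size only gave 4 members lower with 4-OHT in KO in place of 2, beside 4758 of the 16484 genes. Its largest shift of the median of all genes was -0.07. Fitting the compared libraries alone gave 2 members lower in KO without 4-OHT, beside 77 of the 16484 genes. With limma-voom 1 member was higher in KO without 4-OHT and 5 with 4-OHT, beside 863 and 1410 of the 16484 genes.

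The clone as a block pairs treated and untreated libraries (2 residual degrees of freedom). With it, 22 members were higher and 2 lower with 4-OHT in KO. In WT 21 were higher and 3 lower, and 3 responses were larger in KO. PMVK and INSIG1 in WT were gained and no other call changed. Of all 16484 genes the block fit called 4768 higher and 4526 lower with 4-OHT in KO. In WT it called 4272 higher and 3989 lower, and it called 793 responses larger in KO and 555 smaller.

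Leaving out each library in turn gave 20 to 22 members higher and 0 to 2 lower with 4-OHT in KO, 16 to 20 higher and 1 to 4 lower in WT, 0 to 1 higher and 0 to 6 lower in KO without 4-OHT, 0 to 5 higher and 0 to 3 lower in KO with 4-OHT, and 0 to 5 larger and 0 to 1 smaller responses in KO. The group left with 1 library was assumed to vary like the others. The counts over all genes moved in these fits as well, so the background of the member counts was not fixed. The cause of these changes was not tested.

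Over all genes, KO against WT without 4-OHT moved most, from 434 higher and 622 lower to 84 and 161 with no filter, 48 and 77 in the compared libraries alone, 863 and 898 with limma-voom, and 1 and 4 without the untreated KO clone 69. KO against WT with 4-OHT moved from 1110 and 1272 to 449 and 545 with no filter and 66 and 131 without the treated KO clone 69; the difference of responses moved from 722 and 512 to 305 and 132 with no filter. Reads limited TM7SF2 most, with at most 85 in a library.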
